A study of Mus musculus with 4 samples.

Results

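CD4 T cells, including regulatory T cells, were selected from dissociated mouse mammary tumors by their own transcripts. A barcode was taken as a cell when it held at least 1000 UMIs (unique molecular identifiers, which count captured transcripts) and at most 20% mitochondrial UMIs. It was called a CD4 T cell when Cd3d, Cd3e and Cd3g summed to at least 2 UMIs, Cd8a and Cd8b1 were at 0, Cd4 or Foxp3 had at least 1 UMI, and the macrophage genes C1qa, C1qb and C1qc and the epithelial genes Epcam, Krt8 and Krt18 each summed to under 10 per 10000 UMIs. This left 221 cells out of 23572 barcodes within the limits. Of these, 71 had at least 1 Foxp3 UMI and are called Foxp3+ below, and 150 had none and are called Foxp3=0.

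The tumors came from PyMT transgenic mice, in which the MMTV promoter drives the polyoma middle T oncogene in the mammary epithelium. All 4 mice carried Frmd8 fl/fl alleles, in which exons of Frmd8 are flanked by loxP sites, and tumors were taken at endpoint, at 17 to 18 weeks. The 2 Cre- mice (replicates 1 and 3) lacked the MMTV-Cre transgene and the 2 Cre+ mice (replicates 2 and 4), their littermates by the breeding described, carried it. MMTV-Cre was used to delete Frmd8 in the luminal epithelium, whether it also acted in T cells was not tested, and cells were sorted by flow cytometry before capture with a gate that was not given in the sources used here, so shares of cell types depend on that sort. The question asked was which CD4 T cells these tumors held, how Foxp3+ cells differed from the rest, and whether either differed between the genotypes.

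CD4 T cells recognise peptides on MHC class II molecules and help or restrain other immune cells through cytokines and surface ligands. The transcription factor Foxp3 directs the regulatory lineage, which restrains immune responses by taking up interleukin 2 through CD25 (Il2ra), by displaying CTLA-4 and by other means. Regulatory T cells in tissues and tumors are known for high levels of TNF receptor family members and, in part, for the interleukin 33 receptor (Il1rl1), KLRG1 and amphiregulin, whereas resting and helper CD4 cells depend on factors such as TCF-1 (Tcf7) and BCL-2.

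The CD4 T cells held 54 and 92 cells in Cre- replicates 1 and 3 and 51 and 24 cells in Cre+ replicates 2 and 4. Values for single libraries are given in this order throughout. The Foxp3+ cells numbered 24, 24, 14 and 9, and the Foxp3=0 cells 30, 68, 37 and 15. The deposited libraries held 112729231 to 157662955 UMIs. Cre+ replicate 4 stood apart, since it was deposited with all 2582424 barcodes and was made with Cell Ranger 4, whereas the other libraries held 7020 to 8017 called barcodes and were made with Cell Ranger 6.1.2. Where a gene described below gained or lost its call without this library, the value without it is given. The selected cells were shallow next to other cells of the tumor, with a median of 5373 UMIs (2093 to 30498), against 8276.5 in CD8 T cells. Foxp3+ cells had a median of 5697 UMIs and Foxp3=0 cells of 5290.5. In sum the cells held 1406291 UMIs, 510814 in Foxp3+ and 895477 in Foxp3=0 cells. No barcode of a selected cell was shared by selected cells of another library (0 for each of the 6 pairs of libraries). Of deposited barcodes with at least 1000 UMIs, before the mitochondrial limit, 9 to 17 were shared by any 2 libraries.

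The label was compared with the markers Cd3e, Cd4 and Foxp3, which the selection used in part and which are therefore described with no test. Levels are given as CPM, the UMIs of a gene per 1000000 UMIs of the summed cells. Cd3e, a chain of the T cell receptor complex, was at 368, 270, 285 and 612 CPM in Foxp3+ cells and at 430, 414, 454 and 436 in Foxp3=0 cells, so every library carried it in both groups. Foxp3 was at 448, 349, 448 and 527 CPM in Foxp3+ cells, and 20 of the 71 cells were included on exactly 1 Foxp3 UMI. Cd4 was at 202, 191, 153 and 105 CPM in Foxp3+ cells and at 461, 361, 288 and 245 in Foxp3=0 cells, a difference set by the selection, since a Foxp3=0 cell had to have a Cd4 UMI and only 39 of 71 Foxp3+ cells had one. After every cell was thinned to 2000 UMIs, 62.0% of the Foxp3+ cells still had a Foxp3 UMI, so a count of 0 at this depth does not show that a cell lacked Foxp3. Foxp3 was seen in 0 of 8970 thinned epithelial cells, which at that depth allows a share of up to 0.0334%. Before thinning, 4 of 9898 epithelial cells had a Foxp3 UMI.

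Selection rested on single UMIs of Cd4 or Foxp3 in many cells. Of the 150 Foxp3=0 cells 73 were included on exactly 1 Cd4 UMI, and 278 T cells lay just outside, with no UMI of Cd4, Cd8a, Cd8b1 or Foxp3. The T cell receptor constant genes were at 2639 CPM in the first and at 1827 CPM in the second of these groups. The other thresholds had fewer cells near them. The Cd3 sum was exactly 2 in 1 selected cell, and 4 cells were left out with a sum of 1. A further 22 cells with no Cd3 UMI, which fulfilled the other criteria with Foxp3 or Cd4, held 17.3 CPM of the T cell receptor constant genes, against 2536 in the selected cells. Another 6 cells were left out on exactly 1 Cd8 UMI. The C1q sum was between 5 and 10 per 10000 in 14 selected cells and between 10 and 20 in 3 cells left out, and the epithelial sum was between 5 and 10 in 12 selected cells and at 10 or more in 12 cells left out.

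Markers of other cell types were low and are given as sums over each list, in CPM. The 6 macrophage markers summed to 133 to 336 in Foxp3+ cells and 164 to 395 in Foxp3=0 cells, against 23747 to 43340 in cells of the macrophage gate. The 3 mast cell and basophil markers were at 0 in both, and the 4 gamma-delta T cell markers were at 0 in Foxp3+ cells and at 7.89 to 53.8 in Foxp3=0 cells. The 5 natural killer cell markers summed to 0.00 to 10.2 in Foxp3+ and to 24.9 to 109 in Foxp3=0 cells, with Klra8 at 0 in both. The 6 epithelial and milk markers summed to 149 to 507 in Foxp3+ and 99.98 to 320 in Foxp3=0 cells, against 5229 to 14070 in epithelial cells. Fibroblast, endothelial and neutrophil markers summed to at most 113 in Foxp3+ cells. In Foxp3=0 cells the endothelial sum reached 305 in Cre- replicate 1 and was at most 63.6 in the other libraries. The part of these transcripts in the results below was not tested beyond the fit that leaves out cells with 2 or more UMIs of markers of other lineages.

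The regulatory T cell program was higher in Foxp3+ than in Foxp3=0 cells of the same tumor. Of 2571 genes tested on UMI sums per mouse, with the mouse as a block, 270 (10.5%) passed an adjusted p of 0.05 by edgeR's quasi-likelihood test, 123 (4.78%) higher and 147 (5.72%) lower in Foxp3+ cells. Without Cre+ replicate 2 the count was 112 and without Cre- replicate 3 it was 117, of which 102 and 114 were among the 270. The core list of regulatory T cell genes had 16 members, 13 of which passed the filter on low counts. Of these 13, 9 rose and none fell, 4 did not pass, and the median log2 fold change of the 13 was 1.69, against -0.01 over all genes tested. The genes that rose were Il2ra, Ctla4, Ikzf2, Ikzf4, Tnfrsf18, Tnfrsf4, Izumo1r, Capg and Itgae.

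**Figure D1:**
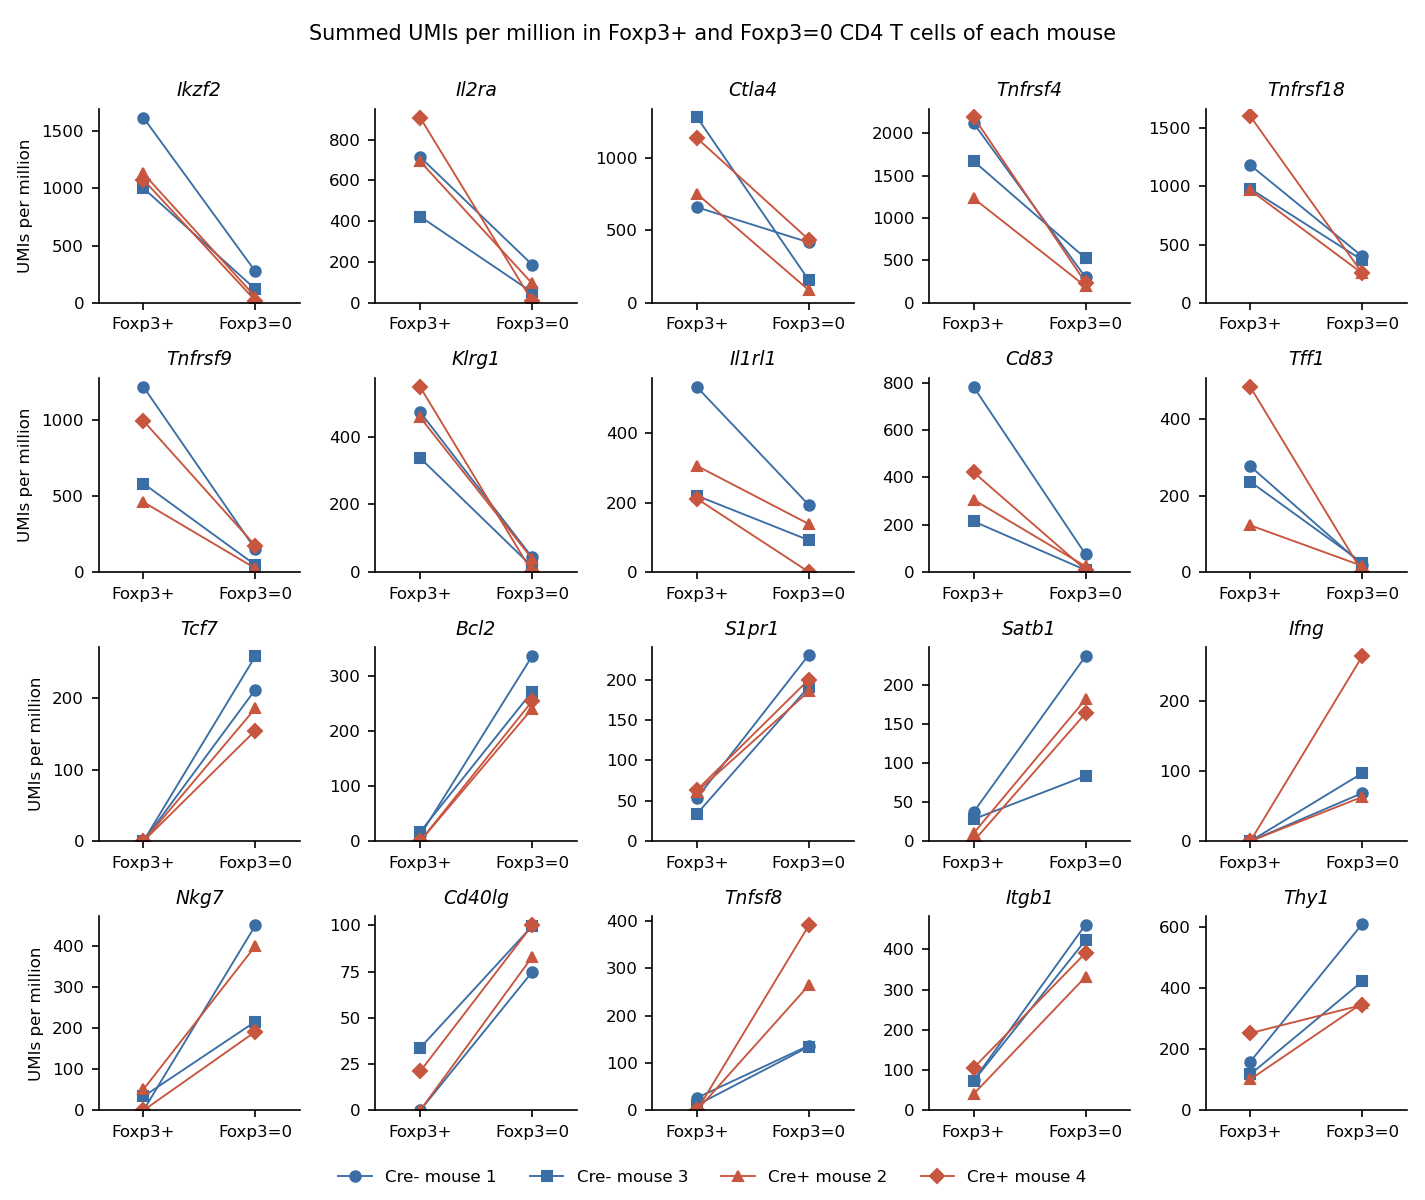
Summed CPM (vertical axis, linear from 0) of 20 genes in the Foxp3+ and the Foxp3=0 CD4 T cells of each mouse, with a line joining the 2 sums of a mouse and blue for Cre- and red for Cre+. Ikzf2, for example, lies between 1002 and 1620 in the Foxp3+ sums and between 18.2 and 274 in the Foxp3=0 sums, and Tcf7 lies at 0 in every Foxp3+ sum.

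Ikzf2 encodes Helios, a transcription factor of the Ikaros family that is common in regulatory T cells. It was at 1620, 1002, 1131 and 1076 CPM in Foxp3+ cells and at 274, 118, 51.3 and 18.2 in Foxp3=0 cells. The ranges did not overlap, and the lowest Foxp3+ value lay far above the highest Foxp3=0 value. The log2 fold change was 3.4 ± 0.36 (SE, 4 mice, edgeR adjusted p = 7.14e-05). Its relative Ikzf4, which encodes Eos, was at 256, 95.7, 112 and 148 CPM in Foxp3+ and at 62.3, 16.1, 31.6 and 18.2 in Foxp3=0 cells. Ikzf4 was higher in Foxp3+ cells within each mouse, by a log2 fold change of 2.07 ± 0.34 (edgeR adjusted p = 0.00147). Among cells thinned to 2000 UMIs, an Ikzf2 UMI was seen in 84.5% of Foxp3+ and 14.7% of Foxp3=0 cells. It was seen in 26.7% of CD8 T cells and in 31.0% of T cells with no Cd4, Cd8 or Foxp3 UMI. In epithelial cells the share was 1.5%. The median depths before thinning were 5697, 5290.5, 8276.5, 6899.5 and 16190 UMIs in the same order. Thinning therefore removed unlike parts of the counts, and the part of free RNA in these shares was not tested.

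Il2ra, Tnfrsf4, Tnfrsf18, Tnfrsf9 and Cd27 were receptor genes that rose in Foxp3+ cells. Il2ra, the alpha chain of the interleukin 2 receptor, was at 714, 422, 693 and 907 CPM in Foxp3+ and at 187, 51.1, 94.7 and 9.09 in Foxp3=0 cells. The groups did not overlap (log2 fold change 2.84 ± 0.39, edgeR adjusted p = 0.000496). Il2rb, the beta chain of the same receptor, did not pass (log2 fold change 0.05 ± 0.25, edgeR adjusted p = 0.958). Tnfrsf4, which encodes the costimulatory receptor OX40, was at 2121, 1673, 1233 and 2194 CPM in Foxp3+ and at 299, 525, 193 and 236 in Foxp3=0 cells. Every Foxp3+ sum lay above every Foxp3=0 sum (log2 fold change 2.38 ± 0.24, edgeR adjusted p = 6.68e-05). Tnfrsf18 (GITR) was at 1183, 980, 968 and 1603 CPM in Foxp3+ and at 399, 366, 253 and 254 in Foxp3=0 cells, a log2 fold change of 1.69 ± 0.23 (edgeR adjusted p = 0.000473). Tnfrsf9 (4-1BB), which marks recently activated T cells, was at 1215, 580, 458 and 992 CPM in Foxp3+ cells and at 150, 45.8, 23.7 and 173 in Foxp3=0 cells (log2 fold change 3.12 ± 0.30, edgeR adjusted p = 4.33e-05). Il2ra, Tnfrsf4, Tnfrsf18 and Tnfrsf9 were therefore higher in the Foxp3+ sum of each of the 4 mice, with no overlap of the groups. Each lost its call in 1 alternative, the split after thinning to 1000 UMIs, with values of 1.64, 0.98, 1.03 and 1.44 and adjusted p-values of 0.0544, 0.133, 0.124 and 0.0512. Cd27, a further TNF receptor family member that supports T cell survival, was at 218, 169, 153 and 253 CPM in Foxp3+ and at 87.2, 59.2, 59.2 and 18.2 in Foxp3=0 cells. Its log2 fold change was 1.52 ± 0.33 (edgeR adjusted p = 0.00881). Without Cre+ replicate 2 it was 1.60 with an adjusted p of 0.0511, within a range of 0.000137 to 0.0511 over its alternatives.

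The inhibitory receptor Ctla4 was at 661, 1284, 754 and 1139 CPM in Foxp3+ and at 417, 156, 86.8 and 436 in Foxp3=0 cells. The groups did not overlap, and Cre- replicate 1 had the smallest difference between its 2 sums. The log2 fold change was 1.86 ± 0.37 (edgeR adjusted p = 0.00533), and without Cre+ replicate 2 it was 1.52 and no longer passed (adjusted p = 0.0579, within a range of 4.25e-09 to 0.0896 over its alternatives). Itgae, the alpha E integrin that binds E-cadherin on epithelium, was at 117, 175, 153 and 190 CPM in Foxp3+ and at 31.1, 37.7, 39.5 and 27.3 in Foxp3=0 cells, with a log2 fold change of 1.99 ± 0.32 (edgeR adjusted p = 0.00135). Izumo1r, which encodes the folate receptor 4 of regulatory T cells, was at 63.9, 163, 112 and 295 CPM in Foxp3+ and at 37.4, 75.4, 15.8 and 45.4 in Foxp3=0 cells. It was higher within each mouse but the groups overlapped (log2 fold change 1.5 ± 0.38, edgeR adjusted p = 0.0221). The call was lost without Cre+ replicate 2 (1.24, adjusted p = 0.137) and without Cre+ replicate 4 (1.26, adjusted p = 0.0678), within a range of 0.00541 to 0.137. The actin capping protein gene Capg was higher by a log2 fold change of 1.14 ± 0.23 (edgeR adjusted p = 0.00584), a call lost without Cre+ replicate 2 (adjusted p = 0.0511) and without Cre- replicate 3 (adjusted p = 0.0578), within a range of 0.000362 to 0.371.

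Genes known from tissue and tumor regulatory T cells rose in part. This list had 18 members, of which 11 passed the filter. Tnfrsf9, Klrg1, Il1rl1 and Batf rose, 7 did not pass, none fell, and the median of the 11 was 1.22 against -0.01 over all genes. Klrg1, an inhibitory receptor for cadherins, was at 474, 338, 458 and 549 CPM in Foxp3+ and at 43.6, 16.1, 39.5 and 0.00 in Foxp3=0 cells. Every Foxp3+ sum lay well above every Foxp3=0 sum (log2 fold change 3.89 ± 0.37, edgeR adjusted p = 4.33e-05). Il1rl1, the receptor of interleukin 33, was at 533, 220, 306 and 211 CPM in Foxp3+ and at 193, 91.5, 138 and 0.00 in Foxp3=0 cells. The groups did not overlap, but the log2 fold change of 1.4 ± 0.36 (edgeR adjusted p = 0.0226) lost its call without Cre- replicate 1 (1.45, adjusted p = 0.101) and without Cre+ replicate 2 (1.58, adjusted p = 0.0999). It also lost it without cells holding markers of other lineages, and its adjusted p ranged from 4.69e-08 to 0.468 over the alternatives. Batf, a transcription factor of the AP-1 family, was higher in 3 of 4 mice, at 309, 208, 91.7 and 105 CPM in Foxp3+ and 49.8, 51.1, 55.3 and 118 in Foxp3=0 cells (log2 fold change 1.38 ± 0.39, edgeR adjusted p = 0.0367). Its call was lost without Cre- replicate 1 (0.93, adjusted p = 0.297), without Cre+ replicate 2 (1.55, adjusted p = 0.0903) and without Cre- replicate 3 (1.13, adjusted p = 0.198), within a range of 0.00209 to 0.297.

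Areg, which encodes the growth factor amphiregulin, did not pass the test. It was at 725, 586, 306 and 1139 CPM in Foxp3+ and at 262, 433, 166 and 0.00 in Foxp3=0 cells, higher in Foxp3+ cells within each mouse, but the groups overlapped (log2 fold change 1.45 ± 0.55, edgeR adjusted p = 0.129, range 5.13e-05 to 0.719 over the alternatives). Its transcripts were concentrated in few cells. In Foxp3=0 cells of Cre- replicate 3, 1 cell held 113 of the 161 Areg UMIs. An Areg UMI was seen in 38 of 71 Foxp3+ cells (53.5%, exact 95% interval 41.3 to 65.5%) and in 15 of 150 Foxp3=0 cells (10.0%, 5.71 to 16.0%), intervals that cover counting error only. Among cells thinned to 2000 UMIs the shares of Areg were 35.2% and 8.00%, against 0.338% of CD8 T cells and 3.04% of epithelial cells. In the Foxp3+ cells of single libraries it was seen in 18 of 24, 14 of 24, 2 of 14 and 4 of 9 cells. Gata3, a transcription factor shared by type 2 helper and tissue regulatory T cells, was at 730, 434, 346 and 464 CPM in Foxp3+ and 343, 226, 284 and 45.4 in Foxp3=0 cells and did not pass (log2 fold change 0.98 ± 0.33, edgeR adjusted p = 0.0758). Icos, a costimulatory receptor, was at 421, 394, 377 and 675 CPM in Foxp3+ and at 523, 509, 229 and 518 in Foxp3=0 cells (log2 fold change -0.09 ± 0.24, edgeR adjusted p = 0.89). Il10, the gene of an inhibitory cytokine, was below the filter, with 41 UMIs in 10 Foxp3+ cells and 1 UMI in 1 Foxp3=0 cell.

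The genes with the largest rise in Foxp3+ cells, chosen by fold change among those called and higher in all 4 mice, were Rapsn, Klrg1, Cd83, Tff1, Ikzf2, Neb, Swap70, Tnfrsf9, Arl5a and Il2ra. Cd83, which encodes a surface glycoprotein best known from mature dendritic cells, was at 783, 214, 306 and 422 CPM in Foxp3+ and at 74.8, 8.07, 23.7 and 9.09 in Foxp3=0 cells (log2 fold change 3.78 ± 0.33, edgeR adjusted p = 4.33e-05). Cd83 was seen in 45 of 71 Foxp3+ and 10 of 150 Foxp3=0 cells. It is also a macrophage transcript here. After thinning it was seen in 48.7% of macrophages, 45.1% of Foxp3+ and 4.0% of Foxp3=0 cells. The macrophage marker sums of Foxp3+ and Foxp3=0 cells, given above, overlapped. The dendritic cell marker sums did not, at 277 to 570 CPM in Foxp3+ and 54.5 to 135 in Foxp3=0 cells. The part of RNA from either cell type in this difference was not tested beyond the fit without cells holding markers of other lineages. Tff1, a secreted trefoil peptide known from epithelium, was at 277, 237, 122 and 485 CPM in Foxp3+ and at 18.7, 24.2, 15.8 and 0.00 in Foxp3=0 cells. The 4 Foxp3+ sums of Tff1 lay above all Foxp3=0 sums (log2 fold change 3.59 ± 0.43, edgeR adjusted p = 0.000176), and after thinning a Tff1 UMI was seen in 14 of 71 Foxp3+ cells and 0 of 8970 epithelial cells, which allows a share of up to 0.0334%.

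Rapsn, which encodes a scaffold of the acetylcholine receptor at the neuromuscular junction, and Neb, which encodes the muscle protein nebulin, were at low levels. Rapsn was at 74.6, 130, 122 and 169 CPM in Foxp3+ and at 12.5, 2.69, 0.00 and 0.00 in Foxp3=0 cells (log2 fold change 4.72 ± 0.63, edgeR adjusted p = 0.000473). Neb was at 107, 73.2, 173 and 127 CPM in Foxp3+ and at 37.4, 2.69, 3.95 and 0.00 in Foxp3=0 cells (log2 fold change 3.33 ± 0.60, edgeR adjusted p = 0.00304). Both were seen in a minority of cells, Rapsn in 24 of 71 and Neb in 32 of 71 Foxp3+ cells, and the 8 Rapsn UMIs of Cre+ replicate 4 lay in 1 cell. Without Cre- replicate 1 the values were 5.87 for Rapsn and 4.93 for Neb, and Neb no longer passed without Cre+ replicate 2 (2.77, adjusted p = 0.0556, range 9.14e-11 to 0.0556). Swap70, a signalling adaptor of lymphocytes, rose by a log2 fold change of 3.14 ± 0.43 and Arl5a, a small GTPase of the Golgi, by 2.95 ± 0.31 (edgeR adjusted p = 0.000518 and 7.14e-05).

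The genes whose detection followed Foxp3 most closely were found among cells thinned to 1000 UMIs, as a description of the cells in which Foxp3 defined the split. Ikzf2 was seen in 69.0% of Foxp3+ and 8.00% of Foxp3=0 cells, Tnfrsf4 in 77.5% and 22.0%, and Tnfrsf9 in 46.5% and 4.67%. The kinase gene Pim1 was seen in 70.4% and 30.0%, and Ptprcap, which encodes a partner of CD45, in 67.6% and 28.7%. In the opposite direction, Ccnd3, which encodes cyclin D3, was seen in 0.00% of 71 Foxp3+ cells, which allows a share of up to 4.23%, and in 26.0% of Foxp3=0 cells. Zfp36l2, Rps25, Thy1 and Btg2 differed by -29.97, -29.6, -28.9 and -25.8 percentage points.

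Genes of the program were also counted together in single cells. Il2ra was seen in 62 and Ikzf2 in 68 of 71 Foxp3+ cells, and in 27 and 31 of 150 Foxp3=0 cells. Whether the counts of genes seen together exceed what the shares of single genes give was not tested. Il2ra and Ikzf2 were seen together in 59 of 71 Foxp3+ cells (83.1%, exact 95% interval 72.3 to 91.0%) and in 7 of 150 Foxp3=0 cells (4.67%, 1.90 to 9.38%). In single libraries the pair was seen in 21 of 24, 20 of 24, 11 of 14 and 7 of 9 Foxp3+ cells. The tissue genes Areg, Il1rl1 and Klrg1 were seen together in 21 of 71 Foxp3+ cells (11, 6, 2 and 2 per library) and in 4 of 150 Foxp3=0 cells. Most Foxp3+ cells therefore had a UMI of Helios and CD25. Singly, Il1rl1 and Klrg1 were each seen in 47 and Areg in 38 of 71 Foxp3+ cells. A count of 3 genes together cannot exceed that of any of them, so it is not compared with the pair.

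**Figure D2:**
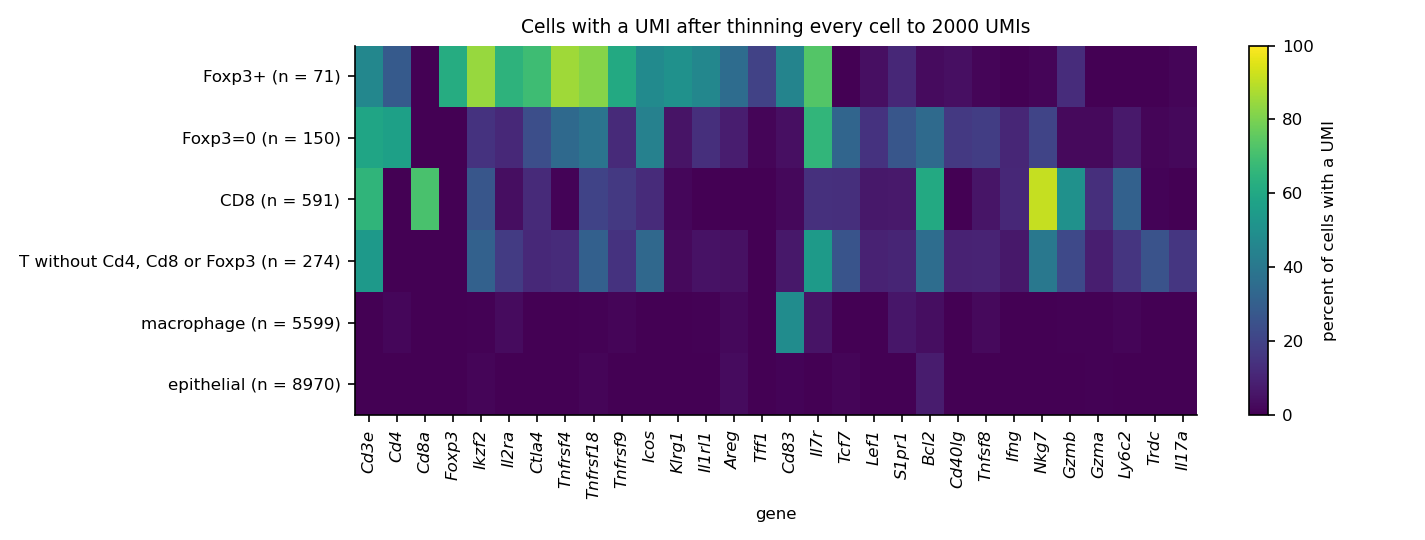
Percent of cells with a UMI (color, 0 to 100) for 30 genes (columns) in 6 populations (rows, with the number of cells) after every cell was thinned to 2000 UMIs. Ikzf2 was seen in 84.5% of Foxp3+ cells and 14.7% of Foxp3=0 cells, Tcf7 in none of the Foxp3+ cells and 32.7% of Foxp3=0 cells, and Nkg7 in 91.0% of CD8 T cells.

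Factors of resting and recirculating T cells were lower in Foxp3+ cells. Of the 10 genes on this list 7 passed the filter, and 4 of them fell, Tcf7, Lef1, S1pr1 and Satb1, with none higher and a median of -1.37 against -0.01 over all genes. Tcf7, which encodes TCF-1, was at 0 UMIs in the Foxp3+ cells of all 4 mice, with 0 of 71 cells having a UMI, which allows a share of up to 4.23%. In Foxp3=0 cells Tcf7 was at 212, 258, 185 and 155 CPM, with 194 UMIs in 87 of 150 cells. The level in Foxp3=0 cells was at least 36.9-fold higher when the Foxp3+ group was set to a floor of 3 UMIs over the group (edgeR adjusted p = 7.57e-05). After thinning to 2000 UMIs, Tcf7 was seen in 49 of 150 Foxp3=0 cells, 79 of 591 CD8 T cells and 1.28% of epithelial cells.

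S1pr1, the receptor with which lymphocytes leave tissue, was at 53.3, 33.8, 61.1 and 63.3 CPM in Foxp3+ and at 230, 191, 185 and 200 in Foxp3=0 cells. The groups did not overlap (log2 fold change -2.16 ± 0.31, edgeR adjusted p = 0.000604). Satb1, a chromatin organizer of T cells, was at 37.3, 28.2, 10.2 and 0.00 CPM in Foxp3+ and at 237, 83.4, 182 and 164 in Foxp3=0 cells (log2 fold change -2.84 ± 0.43, edgeR adjusted p = 0.00102). Lef1, a partner of TCF-1, was lower by a log2 fold change of -1.37 ± 0.39 (edgeR adjusted p = 0.04). Lef1 no longer passed without Cre+ replicate 2 (adjusted p = 0.183), Cre- replicate 3 (0.366) or Cre+ replicate 4 (0.0535), within a range of 0.0327 to 0.366. The interleukin 7 receptor gene Il7r, often low in regulatory T cells of the blood, did not pass, with 725, 1014, 611 and 1603 CPM in Foxp3+ and 417, 1163, 651 and 682 in Foxp3=0 cells (log2 fold change 0.25 ± 0.24, edgeR adjusted p = 0.627).

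Bcl2, which encodes a protein that protects lymphocytes from death, was the most lowered gene with UMIs on both sides. It was at 10.7, 16.9, 0.00 and 0.00 CPM in Foxp3+ and at 336, 272, 241 and 254 in Foxp3=0 cells. The Foxp3=0 sums varied little among mice and lay far above the Foxp3+ sums (log2 fold change -4.95 ± 0.45, edgeR adjusted p = 4.33e-05, or -5.60 without Cre- replicate 3). A Bcl2 UMI was seen in 4 of 71 Foxp3+ and 86 of 150 Foxp3=0 cells. After thinning the shares of Bcl2 were 2.82% and 34.7%, against 60.9% in CD8 T cells and 7.8% in epithelial cells, so that the share in Foxp3+ cells lay below that of epithelial cells. In Foxp3=0 cells, Tcf7 and Bcl2 were seen together in 51 of 150 cells and Tcf7 and Lef1 in 31.

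Genes of type 1 helper and cytotoxic T cells were lower in Foxp3+ cells. Of 12 genes listed 6 passed the filter, and Ifng, Cxcr3, Cxcr6, Nkg7 and Il18r1 fell, with none higher and a median of -1.91 against -0.01 over all genes. Ifng, which encodes interferon gamma, was at 0 in all 71 Foxp3+ cells, which allows a share of up to 4.23%, and at 68.5, 96.9, 63.1 and 264 CPM in Foxp3=0 cells. Its 92 UMIs lay in 31 of 150 Foxp3=0 cells, and the level was at least 17.5-fold higher there with the floor of 3 UMIs over the Foxp3+ group (edgeR adjusted p = 0.000557). Nkg7, a protein of cytotoxic granules, was at 0.00, 33.8, 50.9 and 0.00 CPM in Foxp3+ and at 449, 215, 399 and 191 in Foxp3=0 cells (log2 fold change -3.97 ± 0.52, edgeR adjusted p = 0.000473, or -3.17 without Cre- replicate 1 and -4.69 without Cre- replicate 3). Natural killer cell markers were also higher in Foxp3=0 cells (24.9 to 109 CPM in sum, against 0.00 to 10.2), and Nkg7 was seen in 4 of 71 and 46 of 150 cells.

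Cxcr3, a chemokine receptor of type 1 cells, was at 5.33, 39.4, 40.7 and 63.3 CPM in Foxp3+ and at 68.5, 135, 118 and 136 in Foxp3=0 cells (log2 fold change -1.97 ± 0.39, edgeR adjusted p = 0.00558). Il18r1, a receptor chain for interleukin 18, was at 58.6, 84.5, 30.6 and 63.3 CPM in Foxp3+ and at 174, 277, 103 and 254 in Foxp3=0 cells (log2 fold change -1.86 ± 0.29, edgeR adjusted p = 0.00123). Neither gene overlapped between the groups. Cxcr6, a receptor of tissue resident T cells, overlapped, at 149, 50.7, 244 and 0.00 CPM in Foxp3+ and 380, 320, 209 and 309 in Foxp3=0 cells (log2 fold change -1.60 ± 0.46, edgeR adjusted p = 0.0414). The call of Cxcr6 was lost without Cre- replicate 1 (adjusted p = 0.121), Cre- replicate 3 (0.186) or Cre+ replicate 4 (0.0677) and held without Cre+ replicate 2 (-2.39), within a range of 3.88e-10 to 0.206. Ccl5, a chemokine of effector cells, was at 192, 653, 367 and 359 CPM in Foxp3+ and at 729, 1074, 813 and 63.6 in Foxp3=0 cells. It was lower in 3 of 4 mice, not in Cre+ replicate 4, and did not pass (log2 fold change -0.87 ± 0.42, edgeR adjusted p = 0.252), but passed without that library (-1.33, adjusted p = 0.00587, range 0.000255 to 0.927).

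The ligand genes Tnfsf8 and Cd40lg were lower in Foxp3+ cells. Tnfsf8, the CD30 ligand, was at 26.6, 11.3, 0.00 and 0.00 CPM in Foxp3+ and at 137, 135, 264 and 391 in Foxp3=0 cells (log2 fold change -3.89 ± 0.52, edgeR adjusted p = 0.000473, or -5.13 without Cre- replicate 1). Cd40lg, the CD40 ligand through which helper T cells license B cells and dendritic cells, was at 0.00, 33.8, 0.00 and 21.1 CPM in Foxp3+ and at 74.8, 99.6, 82.9 and 100 in Foxp3=0 cells. The groups did not overlap (log2 fold change -2.78 ± 0.58, edgeR adjusted p = 0.00699). Without Cre- replicate 3 the value for Cd40lg was -4.47, and without Cre+ replicate 2 it was -2.52 with an adjusted p of 0.0511, within a range of 9.18e-06 to 0.0511. Il2, whose product is taken up by regulatory T cells, was below the filter, with a UMI in 34 of 150 Foxp3=0 cells and 1 of 71 Foxp3+ cells.

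The other genes with the largest fall in Foxp3+ cells were Ly6c2, Pde7a, Tbc1d4, Slfn1 and Ramp3. Ly6c2, a surface antigen of memory T cells, was at 0 in all Foxp3+ cells and at 131, 64.6, 118 and 418 CPM in Foxp3=0 cells, at least 23.0-fold higher with the same floor (edgeR adjusted p = 0.000253). Its 121 UMIs lay in 16 of 150 cells, and its near-identical relatives make the split of reads between them uncertain. Pde7a, a phosphodiesterase of T cells, was at 10.7, 0.00, 0.00 and 0.00 CPM in Foxp3+ and at 81.0, 91.5, 134 and 63.6 in Foxp3=0 cells (log2 fold change -4.51 ± 0.65, edgeR adjusted p = 0.000644). Tbc1d4, a regulator of glucose transporter traffic, differed by -4.33 ± 0.62, Slfn1, a gene of quiescent T cells, by -3.35 ± 0.54 and Ramp3, a receptor partner of the adrenomedullin system, by -3.28 ± 0.53 on the log2 scale (edgeR adjusted p = 0.000604, 0.00141 and 0.00141). Without Cre- replicate 1 Tbc1d4 differed by -5.27 and Ramp3 by -5.39, and without Cre- replicate 3 Tbc1d4 differed by -3.38.

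**Figure D3:**
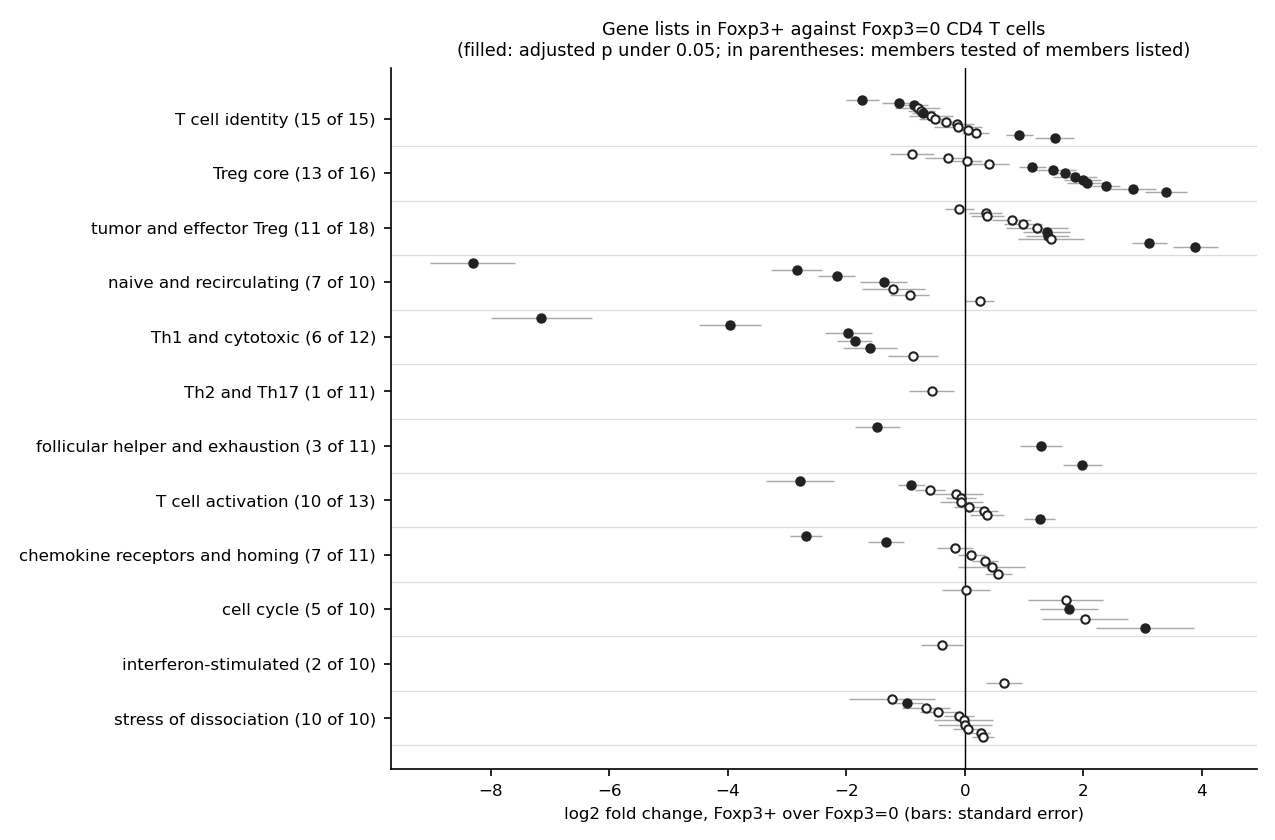
Log2 fold change (horizontal axis) between Foxp3+ and Foxp3=0 CD4 T cells for the tested members of each gene list (rows), 1 point per gene with genes that passed an edgeR adjusted p of 0.05 marked. Core regulatory genes lie to the right, with a median of 1.69, and type 1 helper and cytotoxic genes to the left, with a median of -1.91.

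The remaining lists were mixed. Of all 2571 genes tested 4.78% were higher and 5.72% lower in Foxp3+ cells, the shares to set beside the counts of each list here and above. Of 15 T cell identity genes, all of which passed the filter, 2 rose, Cd2 and Cd27, and 4 fell, among them Trbc2, Lat and Thy1, with a median of -0.51. Thy1, a surface glycoprotein of T cells, was at 160, 118, 102 and 253 CPM in Foxp3+ and at 610, 423, 351 and 345 in Foxp3=0 cells, with no overlap (log2 fold change -1.73 ± 0.28, edgeR adjusted p = 0.00136). Cd2, an adhesion molecule, was higher by 0.92 ± 0.22 (edgeR adjusted p = 0.0173), a call lost without Cre+ replicate 2 (adjusted p = 0.154, range 0.00254 to 0.247). Lat and Trbc2, an adaptor of T cell receptor signalling and a part of the receptor itself, differed by -0.85 ± 0.23 and -0.71 ± 0.18 (edgeR adjusted p = 0.0295 and 0.0235). Both lost their call without Cre- replicate 1, Cre+ replicate 2 or Cre- replicate 3, with adjusted p-values up to 0.196 for Lat and 0.154 for Trbc2 without a library. Cd28 and Ptprc did not pass (log2 fold changes -0.73 ± 0.23 and -0.31 ± 0.25, edgeR adjusted p = 0.0563 and 0.535) and did so without Cre+ replicate 4 (-0.80 and -0.61, adjusted p = 0.026 and 0.0497). Over all alternatives Lat and Trbc2 ranged from 0.00706 to 0.423 and 0.0185 to 0.302, and reads of Trbc2 may be split with the near-identical Trbc1.

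Of 11 follicular helper and exhaustion genes 3 passed the filter. Tox, a nuclear factor of chronically stimulated T cells, was at 256, 118, 173 and 105 CPM in Foxp3+ and at 43.6, 35, 47.4 and 9.09 in Foxp3=0 cells, with no overlap (log2 fold change 1.99 ± 0.33, edgeR adjusted p = 0.0018). Pdcd1, which encodes PD-1, was at 261, 203, 102 and 190 CPM in Foxp3+ and at 43.6, 83.4, 86.8 and 45.4 in Foxp3=0 cells. All Foxp3+ sums of Pdcd1 exceeded the Foxp3=0 sums, narrowly in Cre+ replicate 2 (log2 fold change 1.29 ± 0.35, edgeR adjusted p = 0.0311). The Pdcd1 call was lost without Cre- replicate 1 (0.91, adjusted p = 0.21), Cre- replicate 3 (1.38, 0.0915) or Cre+ replicate 4 (1.23, 0.0528), within a range of 0.00127 to 0.257. Slamf6, a receptor of T cells that keep the capacity to expand, was lower by -1.48 ± 0.38 (edgeR adjusted p = 0.0227). It had a value in 7 alternatives and lost its call in 1 of them, within a range of 0.0072 to 0.166. Tox2, below the filter, had 20 UMIs in 13 Foxp3+ cells and 0 in Foxp3=0 cells, at least 11.7-fold higher with a floor of 3 UMIs over the Foxp3=0 group.

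Of 13 activation genes 10 passed the filter, of which Rel rose and Cd40lg and Dusp2 fell, with a median of -0.06. Rel, an NF-kappa-B subunit needed for regulatory T cells, was at 661, 169, 326 and 338 CPM in Foxp3+ and at 243, 88.8, 75.0 and 145 in Foxp3=0 cells. It was higher within each mouse (log2 fold change 1.27 ± 0.26, edgeR adjusted p = 0.00699), and the call was lost without Cre+ replicate 2 (1.03, adjusted p = 0.0903, range 4.22e-06 to 0.0903). Dusp2, a phosphatase induced by activation, was lower by -0.90 ± 0.23 (edgeR adjusted p = 0.0235), a call lost without Cre- replicate 1, Cre+ replicate 2 or Cre- replicate 3 (adjusted p = 0.121, 0.101 and 0.0893, range 0.0175 to 0.985). Of 11 homing genes 7 passed the filter, and Itgb1 and Gpr183 fell. Itgb1, the integrin beta 1 chain, was at 74.6, 73.2, 40.7 and 105 CPM in Foxp3+ and at 461, 423, 332 and 391 in Foxp3=0 cells, far apart in every mouse (log2 fold change -2.68 ± 0.27, edgeR adjusted p = 6.68e-05). Gpr183, a receptor for oxysterols, was lower by -1.33 ± 0.30 (edgeR adjusted p = 0.0116) and lost its call without Cre+ replicate 2 (-1.29, adjusted p = 0.0818) or Cre- replicate 3 (-0.98, adjusted p = 0.131), within a range of 3.91e-05 to 0.131.

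Of 10 cell cycle genes 5 passed the filter, and Mki67 and Birc5 rose. Mki67, which encodes the proliferation antigen Ki-67, was at 213, 146, 285 and 21.1 CPM in Foxp3+ and at 18.7, 16.1, 103 and 90.9 in Foxp3=0 cells, from 14 of 71 and 15 of 150 cells, and all 28 UMIs in the Foxp3+ cells of Cre+ replicate 2 lay in 1 cell. It was higher in Foxp3+ cells of 3 mice and lower in Cre+ replicate 4 (log2 fold change 1.76 ± 0.49, edgeR adjusted p = 0.0366). Birc5, a gene of mitosis and survival, differed by 3.04 ± 0.83 (edgeR adjusted p = 0.0322) and by 4.59 without Cre+ replicate 4, and its 25 UMIs in the Foxp3+ cells of Cre+ replicate 2 also lay in 1 cell. Both calls were lost without Cre- replicate 1, Cre+ replicate 2 or Cre- replicate 3, with adjusted p-values up to 0.21 for Mki67 and up to 0.187 for Birc5 without a library and ranges of 0.000215 to 0.719 and 1.91e-09 to 0.415 over all alternatives. Top2a and Stmn1 did not pass (log2 fold changes 1.71 ± 0.63 and 2.03 ± 0.72, edgeR adjusted p = 0.117 and 0.103) but passed without Cre+ replicate 4 (2.43 and 3.05, adjusted p = 0.0044 and 0.001). Of 10 genes induced by tissue dissociation, all tested, Ier2 alone passed, lower by -0.98 ± 0.27 (edgeR adjusted p = 0.0336), and lost its call without Cre- replicate 1 (0.0503), Cre+ replicate 2 (0.237) or Cre- replicate 3 (0.187), within a range of 0.0074 to 0.237. The median of this list was -0.06, and its share of calls lay near the 10.5% over all genes tested. None of the 2 interferon-stimulated genes tested of 10 and of the 1 type 2 or 17 helper gene tested of 11 passed.

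A pair of genes best known from B cells and antigen-presenting cells was also higher in Foxp3+ cells. Ighm, the immunoglobulin mu chain, was at 378, 231, 265 and 401 CPM in Foxp3+ and at 68.5, 94.2, 43.4 and 54.5 in Foxp3=0 cells (log2 fold change 2.0 ± 0.30, edgeR adjusted p = 0.00102). Cd74, the invariant chain of MHC class II, was at 256, 439, 346 and 527 CPM in Foxp3+ and at 93.4, 83.4, 82.9 and 36.4 in Foxp3=0 cells (log2 fold change 2.12 ± 0.30, edgeR adjusted p = 0.000604). Of the B cell markers, Cd79a and Ms4a1 were at 0 UMIs in both groups, and of the 5 dendritic cell markers, which include Cd74 and summed to 277 to 570 CPM in Foxp3+ and 54.5 to 135 in Foxp3=0 cells, Siglech was at 0 in both. After thinning, Ighm was seen in 43.7% of Foxp3+ and 13.3% of Foxp3=0 cells, 21.0% of CD8 T cells and 17.8% of macrophages, and Cd74 in 49.3%, 11.3%, 10.5% and 88.6%.

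Cytokines of type 2 and type 17 helper cells were carried by few cells, nearly all of them Foxp3=0. Il17a had 133 UMIs in 6 of 150 Foxp3=0 cells, of which 58 lay in 1 cell of Cre- replicate 3 and 49 in 1 cell of Cre+ replicate 4, and Il17f had 38 UMIs in 1 cell. Il13 had 36 UMIs in 3 Foxp3=0 cells. Il4 had 19 UMIs in 9 and Il5 11 UMIs in 8 Foxp3=0 cells, spread over 2 and 3 libraries, and each had 2 UMIs in 1 Foxp3+ cell. Il22 was at 0 in all 221 cells, which allows a share of up to 1.36%. Ccl1, a chemokine of activated T cells, had 111 UMIs in 10 Foxp3=0 cells, with 71 in 1 cell of Cre+ replicate 4.

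**Figure D4:**
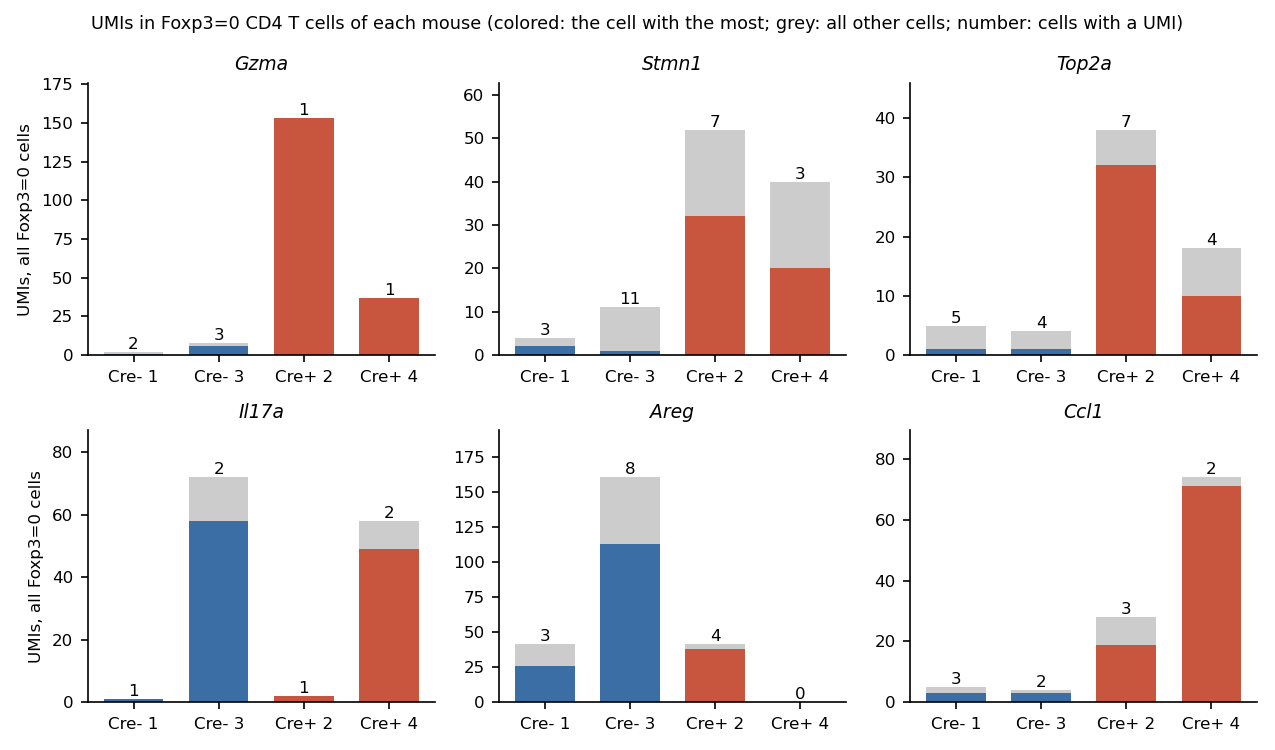
UMIs of 6 genes (vertical axes, linear from 0) summed over the Foxp3=0 CD4 T cells of each mouse, with the cell holding the most UMIs in color (blue Cre-, red Cre+), all other cells in grey and the number of cells with a UMI above each bar. Gzma lies in 1 cell in each Cre+ mouse, with 153 and 37 UMIs.

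Against CD8 T cells of the same tumors, the CD4 T cells were higher in most tested genes of the regulatory lists and lower in most tested cytotoxic genes. The 594 CD8 T cells were chosen by the same criteria with at least 1 Cd8a or Cd8b1 UMI and no Cd4 UMI. A cell could enter the CD4 group on Foxp3 alone, and only 39 of 71 Foxp3+ cells had a Cd4 UMI. Foxp3 gave no entry to the CD8 group. The rise of regulatory genes in this comparison may thus be set in part by the selection, which was not tested. Of 7159 genes tested, 760 (10.6%) passed by edgeR with the mouse as a block, 430 (6.01%) higher and 330 (4.61%) lower in CD4 T cells. Without Cre- replicate 1 the count was 471, of which 445 were among the 760. Of the 16 core regulatory genes 14 passed the filter, 11 of them higher and 2, Il2rb and Itgae, lower, and Il2rb lost its call without Cre- replicate 1 (-0.91, adjusted p = 0.0517, range 6.28e-07 to 0.424). Among the 11, Nt5e lost its call without Cre- replicate 1, Cre+ replicate 2 or Cre- replicate 3 (adjusted p = 0.133, 0.0794 and 0.0839), and Ikzf2 lost it without the replicate block (adjusted p = 0.0716). Of the 18 tissue and tumor regulatory genes 14 passed the filter, 11 higher and 2, Gzmb and Lag3, lower, and Lag3 lost its call without Cre- replicate 1 (-1.38, adjusted p = 0.0781) or Cre- replicate 3 (-1.16, adjusted p = 0.143, range 0.00506 to 0.145). Tnfrsf9 of this list, higher by 1.39 ± 0.23 (edgeR adjusted p = 0.00185), lost its call without the replicate block (adjusted p = 0.161). The fibroblast markers summed to 25.4 to 162 CPM in CD4 and to 61.1 to 2888 CPM in CD8 T cells, highest in Cre+ replicate 2. The neutrophil markers summed to 5.46 to 14.2 CPM in CD4 and to 2.40 to 994 CPM in CD8 T cells, highest in Cre- replicate 3. The epithelial and milk markers summed to 161 to 381 CPM in CD4 and to 80.5 to 164 CPM in CD8 T cells, and the casein gene Csn3 of that list was called higher in CD4 T cells (log2 fold change 0.90 ± 0.26, edgeR adjusted p = 0.0431), a call lost without Cre- replicate 3 (adjusted p = 0.19) or Cre+ replicate 4 (0.0673). The part of the epithelial and milk markers in the comparison was not tested, and that of the other lists was not tested beyond the fit without cells holding markers of other lineages, among them Col1a1 and S100a8. The medians of the regulatory lists were 1.92 and 2.68, against -0.03 over all genes tested.

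Tnfrsf4 was at 1281, 896, 484 and 826 CPM in CD4 and at 6.15, 14.6, 2.40 and 5.14 in CD8 T cells (log2 fold change 6.93 ± 0.25, edgeR adjusted p = 1.61e-08). Areg was at 511, 483, 205 and 343 CPM in CD4 T cells and at 0.769, 1.83, 0.801 and 0.367 in CD8 T cells (log2 fold change 8.58 ± 0.26, edgeR adjusted p = 4.43e-09). Il1rl1 was at 376, 133, 185 and 63.5 CPM in CD4 and at 0.00, 4.56, 0.00 and 0.00 in CD8 T cells, where all UMIs came from 1 cell (log2 fold change 7.35 ± 0.52, edgeR adjusted p = 3.62e-06, or 10.38 without Cre- replicate 3 and 6.49 without Cre- replicate 1). These genes of tissue T cells were at 14.6 CPM or less in every CD8 sum. Tff1 was at 158, 92.9, 45.5 and 146 CPM in CD4 and at 0.769, 0.00, 0.00 and 0.00 in CD8 T cells (log2 fold change 8.60 ± 0.46, edgeR adjusted p = 5.43e-07, or 9.71 without Cre- replicate 1 and 7.81 without Cre+ replicate 4).

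Other genes with a large rise in CD4 T cells included Ccr6, Ccr4 and Pcsk1. Ccr6, the receptor of CCL20, was at 43.1, 25.5, 17.1 and 88.9 CPM in CD4 T cells and at 0 in all 594 CD8 T cells, at least 73.9-fold higher with a floor of 3 UMIs over the CD8 group (edgeR adjusted p = 9.69e-05). Ccr4, a receptor of skin-homing and regulatory T cells, was at 71.8, 32.8, 68.3 and 76.2 CPM in CD4 and at 0.769, 0.913, 0.801 and 0.00 in CD8 T cells (log2 fold change 6.60 ± 0.54, edgeR adjusted p = 8.73e-06, or 5.85 without Cre+ replicate 4). Pcsk1, a prohormone convertase, was at 25.8, 12.7, 54.0 and 82.6 CPM in CD4 and at 0 in CD8 T cells, at least 72.4-fold higher (edgeR adjusted p = 9.77e-05). In each of these genes every CD4 sum exceeded every CD8 sum. The TGF-beta activating integrin chain Itgb8, the leukotriene B4 receptor gene Ltb4r1 and Neb were higher by log2 fold changes of 5.30 ± 0.60, 5.27 ± 0.50 and 5.05 ± 0.56 (edgeR adjusted p = 0.000101, 2.71e-05 and 8.45e-05). Ltb4r1 and Neb differed by 6.12 and 6.13 without Cre+ replicate 4, and Ltb4r1 by 4.57 without Cre+ replicate 2.

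Cd40lg and Il7r were also higher in CD4 than in CD8 T cells. Cd40lg was at 34.5, 78.3, 59.7 and 76.2 CPM in CD4 and at 3.08, 3.65, 4.01 and 1.84 in CD8 T cells (log2 fold change 4.23 ± 0.37, edgeR adjusted p = 1.53e-05). Il7r was at 583, 1115, 640 and 959 CPM in CD4 and at 81.5, 172, 118 and 50.3 in CD8 T cells (log2 fold change 2.97 ± 0.23, edgeR adjusted p = 7.49e-06). Neither gene overlapped between the populations. Icos, Maf, Rora and Gata3, a costimulator and 3 transcription factors of differentiated CD4 cells, were higher by 2.56 ± 0.27, 4.06 ± 0.48, 3.79 ± 0.41 and 2.79 ± 0.24 on the log2 scale (edgeR adjusted p = 6.25e-05, 0.000147, 7.76e-05 and 1.27e-05). These 4 genes were also seen in the T cells with no Cd4, Cd8 or Foxp3 UMI. After thinning to 2000 UMIs, Icos was seen in 48.9% of CD4 T cells, 33.9% of those cells and 12.2% of CD8 T cells, Maf in 36.2%, 30.7% and 3.05%, Rora in 50.2%, 34.3% and 6.26%, and Gata3 in 34.4%, 20.8% and 7.61%. Maf differed by 4.79 without Cre- replicate 1 and 3.28 without Cre+ replicate 4, and Rora by 4.4 without Cre- replicate 3. Of 10 genes of resting and recirculating cells, all tested, Ccr7, S1pr1 and Il7r were higher and none lower. Ccr7, the receptor for lymph node entry, differed by 1.27 ± 0.29 (edgeR adjusted p = 0.0133) and lost its call without Cre- replicate 1 (1.29, adjusted p = 0.0545) or Cre+ replicate 2 (1.00, adjusted p = 0.0671), within a range of 0.000252 to 0.0671.

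Cytotoxic genes were lower in CD4 T cells. Of 12 type 1 helper and cytotoxic genes 11 passed the filter, 7 of them lower, Il18r1 higher and 3 not called, with a median of -2.0. Gzmb, which encodes granzyme B, was at 132, 67.4, 8.53 and 102 CPM in CD4 and at 1850, 1073, 1714 and 3809 in CD8 T cells (log2 fold change -4.73 ± 0.34, edgeR adjusted p = 3.49e-06). Prf1, which encodes perforin, was at 2.87, 0.00, 2.84 and 0.00 CPM in CD4 and at 48.4, 78.5, 41.7 and 23.9 in CD8 T cells (log2 fold change -5.19 ± 0.54, edgeR adjusted p = 5.71e-05, or -5.88 without Cre+ replicate 2 and -4.13 without Cre- replicate 3). Nkg7 was at 207, 157, 302 and 133 CPM in CD4 and at 2110, 2157, 1840 and 1762 in CD8 T cells (log2 fold change -3.38 ± 0.19, edgeR adjusted p = 6.68e-07). Ifng did not pass (log2 fold change -0.37 ± 0.55, edgeR adjusted p = 0.756) but was lower without Cre+ replicate 4 (-1.29, adjusted p = 0.0126). The levels in CD4 T cells were low but above 0 in all 4 mice for Gzmb and Nkg7. Itgae, higher in Foxp3+ than in Foxp3=0 cells, was lower in CD4 T cells as a whole, at 77.5, 82.0, 71.1 and 76.2 CPM against 268, 158, 298 and 232 in CD8 T cells (log2 fold change -1.64 ± 0.19, edgeR adjusted p = 0.000112).

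Receptors of the Ly49 family, known from natural killer cells, were at or near 0 in CD4 T cells. The natural killer cell markers summed to 11.5 to 76.2 CPM in CD4 and to 308 to 388 CPM in CD8 T cells. The gamma-delta T cell markers summed to 5.69 to 36.4 CPM in CD4 and to 46.9 to 109 CPM in CD8 T cells. Their part in this comparison was not tested beyond the fit without cells holding markers of other lineages. Klra7 was at 0 in all 221 CD4 T cells and at 215, 70.3, 145 and 234 CPM in CD8 T cells, where 107 of 594 cells had a UMI, at least 86.4-fold lower in CD4 T cells with a floor of 3 UMIs over that group (edgeR adjusted p = 7.4e-06). Klra6, Klra3 and the adhesion receptor gene Adgrg5 were likewise at 0 in CD4 T cells, at least 27.2-fold, 21.0-fold and 18.9-fold lower. Klra5, Klra1, Klrb1c, the gamma chain genes Tcrg-C4 and Trgv2 and the receptor gene Cd244a had UMIs in 1 CD4 T cell each. Members of the Ly49 and the gamma chain families are near-identical, so the split of reads among them is uncertain. The interferon-stimulated genes Isg15, Ifit1, Rsad2 and Usp18 were lower in CD4 T cells (4 of 9 tested, median -0.95), and each lost its call without Cre- replicate 1 or Cre+ replicate 2, Usp18 also without Cre- replicate 3 and Ifit1 and Rsad2 also without Cre+ replicate 4, with adjusted p-values of 0.131, 0.168, 0.18 and 0.159 without replicate 1 and ranges over all alternatives of 1.66e-07 to 0.131, 1.02e-06 to 0.168, 0.000499 to 0.18 and 0.000289 to 0.159.

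The share of CD4 T cells differed among mice, and its difference between genotypes did not pass a test. They made up 1.10% (exact 95% interval 0.825 to 1.43%) and 1.55% (1.26 to 1.90%) of barcodes in the Cre- mice and 0.909% (0.678 to 1.19%) and 0.337% (0.216 to 0.501%) in the Cre+ mice. Both Cre+ shares lay below both Cre- shares, with means of 1.33% ± 0.323 (SD, n = 2) and 0.623% ± 0.405 (SD, n = 2) and a difference of -0.703 percentage points (exact two-sided permutation test, p = 0.333, the smallest p that 2 against 2 mice allow). Without Cre+ replicate 4 the difference was -0.417. Of CD4 and CD8 T cells together, CD4 T cells made up 27.4%, 40.7%, 28.3% and 11.3%, which overlapped between genotypes (34.1% ± 9.40 and 19.8% ± 12.0, SD, n = 2 each, exact permutation p = 0.667).

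Foxp3+ cells made up 44.4% (exact 95% interval 30.9 to 58.6%) and 26.1% (17.5 to 36.3%) of CD4 T cells in the Cre- mice and 27.5% (15.9 to 41.7%) and 37.5% (18.8 to 59.4%) in the Cre+ mice. The Cre+ shares lay between the Cre- shares (means 35.3% ± 13.0 and 32.5% ± 7.11, SD, n = 2 each, exact permutation p = 1.0). With all cells thinned to 2000 UMIs the difference of -2.79 percentage points became 17.1 (exact permutation p = 0.667), and without Cre- replicate 1 it became 6.39 and without Cre+ replicate 2 it became 2.23, so no direction can be given.

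**Figure D5:**
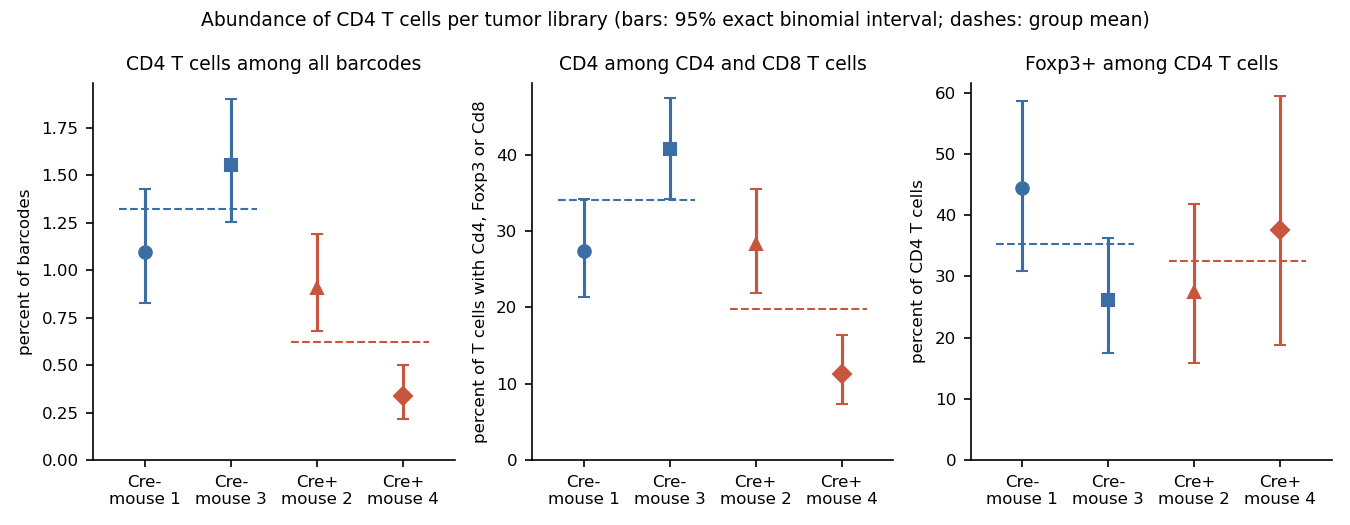
Shares in percent (vertical axes, linear from 0) of CD4 T cells among barcodes, of CD4 among CD4 and CD8 T cells, and of Foxp3+ among CD4 T cells, for each mouse, with exact 95% binomial intervals as bars and blue for Cre- and red for Cre+. The share among barcodes ran from 0.337% to 1.55%, and the Foxp3+ share from 26.1% to 44.4% with wide, overlapping intervals.

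Frmd8 itself, the gene floxed in all mice, was scarce in CD4 T cells. It was at 43.1 and 58.3 CPM in the Cre- mice, on 15 and 32 UMIs, and at 14.2 and 38.1 in the Cre+ mice, on 5 and 6 UMIs. Both Cre+ values of Frmd8 lay below both Cre- values, but the difference did not pass (log2 fold change -1.12 ± 0.54, edgeR adjusted p = 0.998). In epithelial cells, to which Cre is directed, Frmd8 was at 24.2 and 24.2 CPM in Cre- and at 5.52 and 10.5 in Cre+ mice. Counts at the 3' end need not vanish when internal exons are deleted, so this checks the labels only in part.

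Very few genes of CD4 T cells differed between genotypes. Of 4823 genes tested over all CD4 T cells, 1 (0.0207%) passed by edgeR, and 149 had an unadjusted p under 0.05. This gene, Gzma, which encodes granzyme A, was at 5.74 and 14.6 CPM in Cre- and at 435 and 235 in Cre+ mice (log2 fold change 5.01 ± 0.46, edgeR adjusted p = 0.00061), but its 153 UMIs in Cre+ replicate 2 all lay in 1 cell, and its 37 UMIs in Cre+ replicate 4 all lay in 1 cell. With each cell's count of a gene limited to 3 no gene passed, and without Cre- replicate 3 the value for Gzma was 5.95 with an adjusted p of 0.0709, within a range of 1.03e-25 to 0.0709. Counts of calls moved when a mouse was left out, to 24 without Cre- replicate 1, 6 without Cre+ replicate 2, 0 without Cre- replicate 3 (290 at an unadjusted p under 0.05) and 21 without Cre+ replicate 4, the library of another software version, with the lone library of a genotype assumed to vary like the others.

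In Foxp3+ cells 0 of 2324 genes (0%) passed by edgeR, with 92 at an unadjusted p under 0.05 and 1 called by DESeq2, and 9, 31, 12 and 21 passed without replicates 1, 2, 3 and 4. In Foxp3=0 cells 3 of 3136 genes (0.0957%) passed, Gzma, Stmn1 and Top2a, all higher in Cre+ mice, and 26, 51, 30 and 23 passed without replicates 1, 2, 3 and 4. Stmn1, a microtubule regulator of dividing cells, was at 24.9 and 29.6 CPM in Cre- and at 205 and 364 in Cre+ mice (log2 fold change 3.36 ± 0.46, edgeR adjusted p = 0.00852). Top2a, the DNA topoisomerase of dividing cells, was at 31.1 and 10.8 CPM in Cre- and at 150 and 164 in Cre+ mice (log2 fold change 3.19 ± 0.51, edgeR adjusted p = 0.0247). The Cre+ values rested on few cells, with 32 of 52 Stmn1 UMIs and 32 of 38 Top2a UMIs of Cre+ replicate 2 in 1 cell each. The alternative without cells holding cycle genes picks cells by Top2a and Stmn1 themselves. Loss of these calls under it was therefore largely set in advance. With the limit of 3 UMIs per cell and gene, or without cells holding 2 or more UMIs of Mki67, Top2a and Stmn1, 0 genes passed, and the call of Top2a was also lost without Cre- replicate 3 (2.42, adjusted p = 0.0782, range 7.68e-07 to 0.104) and its value was 3.83 without Cre- replicate 1. The difference between Foxp3+ and Foxp3=0 cells itself passed a test of its dependence on genotype for 0 of 2571 genes (0%), with 201 at an unadjusted p under 0.05 and 0 called by DESeq2, and for 9, 77, 7 and 14 genes without replicates 1, 2, 3 and 4.

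The regulatory genes described above showed no genotype call. In Foxp3+ cells the log2 difference between Cre+ and Cre- mice was -0.24 ± 0.30 for Ikzf2, 0.48 ± 0.35 for Il2ra, 0.05 ± 0.51 for Areg and 0.08 ± 0.55 for Tff1 (edgeR adjusted p = 1.00 for each). These tests rest on 2 mice per genotype and 9 to 24 Foxp3+ cells per mouse, and a p above the threshold does not show that the genotypes are alike.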

How the data were processed

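Single-cell 3' libraries (10x Genomics v3 chemistry) came from mammary tumors of 4 mice, 1 library each. The files deposited by the authors hold UMI counts for each gene in each barcode, made with Cell Ranger 6.1.2 (replicates 1 to 3) or 4 (replicate 4, all barcodes), without normalization. The submitters' processing notes list hg38, a human build, while the deposited gene identifiers are of mouse, so the build behind the counts is uncertain and no coordinates are used. No annotation of cells was used and no doublet caller was run.

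Counts were summed per mouse and population and tested with edgeR 4.0.16 in R 4.3.3 (TMM, filterByExpr, quasi-likelihood test, Benjamini-Hochberg over all genes tested, threshold 0.05), with selection genes left out. The mouse was a block within mice, because both sums of a mouse come from the same library. The standard error is the absolute log2 fold change divided by the square root of F, and p-values measure the spread between these mice. Shares were compared with exact permutation tests (scipy 1.17.1). Clopper-Pearson 95% intervals and limits for shares of 0 (3 counts) cover counting error only. Epithelial and macrophage cells had at least 10 UMIs per 10000 of their own genes, under 10 of the other's and no Cd3 UMI. Thinning drew 2000 or 1000 UMIs per cell without replacement.

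The members and gene lists were chosen with earlier results of these data known, so no list is independent evidence of its direction. Named genes were list members and, for either direction of a comparison, up to 10 called genes of largest fold change that moved the same way in every mouse or did not overlap. Genes below the filter, such as Ccl1 and Tox2, were named after their values were seen. Of the listed genes, 2 are counted in their lists and not reported here by name. Alternatives were DESeq2 1.42.0, RLE normalization, no filter, other limits on cells, no block and each mouse left out. Thinning to 2000 UMIs before the split, at most 3 UMIs of a gene per cell, and removal of cells holding cycle genes were added after seeing the data. Shares after thinning come from 1 random draw without replacement, made separately for each population, and carry the error of that draw. The fits were also run on simulated sums with known changes. Those sums held no mouse effect and no counts concentrated in single cells. They therefore do not bear on calls that rest on single cells.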

Additional observations from a re-analysis of the deposited data

Results flagged for a closer look

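For the genes named in a comparison within mice, the log2 difference of the normalised levels (TMM, with a prior count of 1) was taken in each of the 4 mice, and a mouse was set apart when its gap to the nearest other mouse, divided by the range, exceeded Dixon's 95% critical value for 4 samples. This held for 7 of 144 genes, and chance alone sets apart about 1 gene in 20. The library involved was Cre+ replicate 4, which has the fewest cells, for 5 of them and Cre- replicate 3 for 2.

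Between Foxp3+ and Foxp3=0 cells, the difference for Cd27 was 3.01 in Cre+ replicate 4 and 1.05 to 1.27 in the other mice. For Thy1 it was -0.88 in Cre+ replicate 4 and -1.98 to -1.94 in the others. For Il1rl1 it was 4.83 in Cre+ replicate 4, whose Foxp3=0 cells had no Il1rl1 UMI, and 0.86 to 1.39 in the others. For Ighm it was 1.08 in Cre- replicate 3 and 2.22 to 2.32 in the others. Each of these kept its direction in all 4 mice.

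Between CD4 and CD8 T cells, the difference for Klra3 was -3.83 in Cre- replicate 3 and -5.77 to -5.64 in the others, with no Klra3 UMI in the CD4 T cells of any mouse. For S1pr1 it was 2.67 in Cre+ replicate 4 and 1.32 to 1.53 in the others. Nfkb1 was the gene that turned its direction, with -0.43 in Cre+ replicate 4 and 0.80 to 1.02 in the others.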

How the results depend on the processing

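Of the 54 named genes called between Foxp3+ and Foxp3=0 cells none reversed under an alternative, but calls were lost: 11 with DESeq2, 4 to 19 without a mouse (19 without replicate 2), 9 of the 10 with a value when cells were thinned to 1000 UMIs before the split and 7 of 18 when thinned to 2000. The 270 calls between these cells became 177 with DESeq2, 429 with no filter on low counts, 156 without cells holding other lineage markers, 105 of 479 genes when cells were thinned to 2000 UMIs before the split, 12 of 341 genes in 3 mice when they were thinned to 1000 UMIs, and 112 to 332 without a mouse (112 without replicate 2, 117 without replicate 3). Thinning also lowered the number of genes tested and changed which cells had a Foxp3 UMI, and what caused the fall was not tested. The 760 calls between CD4 and CD8 T cells became 1261 with no filter, 1167 with at most 3 UMIs of a gene per cell and 471 to 700 without a mouse (471 without replicate 1). In that comparison Trbc2 (0.28) and Ptprc (0.28) reversed with at most 3 UMIs of a gene per cell, and Col3a1 reversed with that limit (0.35) and without cells holding other lineage markers (0.28). Cre- replicates 1 and 3 and Cre+ replicates 2 and 4 do not share numbers, and the replicate block joins the 2 sums of a mouse. Without that replicate block 254 genes were called between Foxp3+ and Foxp3=0 cells and 551 between CD4 and CD8 T cells, and 49 of 54 and 71 of 90 named calls remained.

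The genotype call in CD4 T cells (1) became 24 with no filter, 21 with order-of-magnitude cell calling of replicate 4, 0 with at most 3 UMIs per gene and cell, 0 without cells holding cycle genes and 0 to 24 without a mouse. In Foxp3+ cells (0) it became 1 with DESeq2, 11 with no filter, 21 with that cell calling, 2 without cells holding other lineage markers and 9 to 31 without a mouse. In Foxp3=0 cells (3) it became 34, 23 and 15 under the last 3 of these and 23 to 51 without a mouse, and 0 both with at most 3 UMIs per gene and cell and without cells holding cycle genes. The test of the difference between genotypes (0) gave 15, 14 and 6 and, without a mouse, 7 to 77. Leaving out a mouse leaves an arm with 1 sample, assumed to vary like the other. The cell calling of replicate 4 left 2 CD4 T cells there, so its gene fits equal those without that library. The cause of these changes was not tested. Removal of cells holding cycle genes picks cells by Top2a and Stmn1 themselves, so the loss of their calls in Foxp3=0 cells was largely set in advance. The Foxp3+ share reversed to 17.1 percentage points when thinned, and without a mouse ranged from -12.0 to 6.39 (6.39 without replicate 1, 2.23 without replicate 2). The share of barcodes ranged from -0.989 to -0.417 and of CD4 and CD8 T cells from -22.7 to -5.73.

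Depth limits most results: 24 CD4 T cells in Cre+ replicate 4, 2571 genes above the filter, and cells with 0 Foxp3 UMIs that may still have expressed it.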

Other observations

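Ribosomal protein genes, which encode parts of the ribosome, were mostly lower in Foxp3+ than in Foxp3=0 cells. Of 80 tested, 57 were lower in Foxp3+ cells and 0 higher, where 5.72% of all genes tested were lower and 4.78% higher. Their median log2 fold change was -0.56 against -0.01 over all genes tested. Between CD4 and CD8 T cells 16 of 81 were lower in CD4 T cells and 0 higher, where 4.61% of all genes were lower and 6.01% higher. Their median was -0.23 against -0.03 over all genes.

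The tumors also held 278 cells with the T cell criteria but no UMI of Cd4, Cd8a, Cd8b1 or Foxp3. After thinning to 2000 UMIs, Il7r was seen in 54.4% of 274 of these cells, Tcf7 in 25.9%, Nkg7 in 40.2% and Cd40lg in 9.49%, against 66.0%, 32.7%, 20.7% and 16.7% of Foxp3=0 CD4 T cells. Their gamma-delta T cell markers summed to 619 to 1613 CPM per library, against 7.89 to 53.8 in Foxp3=0 cells.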
